A study of Homo sapiens with 12 samples.

Results

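The knockdown of HDAC2 in HEK293T cells was examined by comparing the 2 RNA-seq libraries of cells transfected with siRNA against HDAC2 (siHDAC2) with the 2 libraries of cells transfected with control siRNA (siCTL), chosen by their treatment label, 4 of the 12 libraries of the series. The other 8 libraries came from cells treated with siRNA against CARM1, CHD4, GATAD2A or KDM1A, 2 libraries each, and served here only to show where siHDAC2 differed from the other knockdowns. HEK293T is an immortalized line derived from human embryonic kidney, labelled wild type in all groups, and the siRNAs were delivered with Lipofectamine 2000. No untransfected cells were among the samples, so a shift in siCTL and a shift common to all knockdowns cannot be told apart, and the labels do not say whether the 2 libraries of a group came from separate cultures, so that p-values measure the spread between these libraries, which may be technical. The study's methods list a single siRNA sequence against HDAC2. A change seen in siHDAC2 alone therefore cannot be told apart from an effect of that siRNA on other transcripts. A knockdown lowers a transcript for a limited time and leaves part of it, and the time from transfection to harvest, and which of 2 sequencing companies ran which library, are not given in the sources used here.

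HDAC2 is a class I histone deacetylase, an enzyme that removes acetyl groups from lysines of histone tails and other proteins. It shares most of its sequence and its complexes with HDAC1: both serve as the deacetylases of NuRD, which also holds the ATPases CHD3 and CHD4, and of the SIN3 and CoREST corepressor complexes. Histone acetylation is generally found at active promoters and enhancers, and deacetylase complexes act there both to repress genes and to limit the activity of transcribed ones.

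The 4 libraries held 19308315 and 23069839 counts on genes in siCTL and 20613474 and 28648657 in siHDAC2. Some properties of the libraries moved with the group. Fragments on no annotated gene were 17.2% and 18.0% of the siCTL libraries and 21.2% and 20.9% of the siHDAC2 libraries, fragments with several locations 10.6% and 7.54% against 5.44% and 6.53%, ambiguous fragments 6.04% and 6.22% against 5.52% and 5.70%, and counts on identifiers without a match in the annotation 2.61% and 2.58% against 1.94% and 2.18%. Their part in the results was not tested. Of 12 genes listed as typical of HEK293 cells, 8 (NEFL, ENO2, VIM, KRT8, KRT18, CDH2, SOX11 and GATA3) exceeded a CPM of 1 in siCTL (CPM, the counts scaled to 1000000 per library), whereas PAX2, PAX8, NEFM and INA did not, and the summed level of the list was 2450 to 2461 CPM in siCTL and 2599 to 2679 CPM in siHDAC2. None of 8 hepatocyte markers, 1 of 11 immune cell markers and 2 of 13 kidney tubule markers (AQP3 and LRP2) exceeded that level in siCTL, with sums of at most 0.841, 3.94 and 33.0 CPM in the 4 libraries. Fibroblast markers, which HEK293 cells express in part (5 of 9, COL1A1 among them), summed to 130 CPM in both siCTL libraries and to 109 and 115 CPM in siHDAC2, a sum set mostly by COL1A1, which was lower (−0.35), whereas COL3A1 (0.34) and LUM (0.54) were higher and the median of the 4 tested was 0.41.

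HDAC2 (ENSG00000196591.12, GRCh37 chr6:114254192-114332472, minus strand) held 3733 and 4603 counts in the siCTL libraries and 791 and 1101 counts in the siHDAC2 libraries, that is 204 and 212 CPM against 40.8 and 41.0 CPM. The groups did not overlap, and HDAC2 was lower by a log2 fold change of −2.35 ± 0.05 (n = 2 against 2, edgeR quasi-likelihood test, Benjamini-Hochberg adjusted p = 8.01e-26). Here and below, the ± of a log2 fold change is a standard error derived from the statistic of that test. It comes from the fit of all 12 libraries and not from the spread of the libraries compared alone. In length-corrected units, HDAC2 was at 13.2 ± 0.290 FPKM (SD, n = 2) in siCTL and at 2.56 ± 0.007 FPKM in siHDAC2, 19.4% of the control level. In the 8 libraries of the other knockdowns HDAC2 lay between 204 and 246 CPM, so that the loss was seen in both libraries labelled siHDAC2 and in none of the other 10.

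HDAC1 (ENSG00000116478.12, chr1:32757684-32799236, plus strand), the paralogue, was measured at 210 and 211 CPM in siCTL and at 312 and 291 CPM in siHDAC2. HDAC1 was higher by a log2 fold change of 0.52 ± 0.04 (edgeR adjusted p = 1.33e-11). The other knockdowns were also above siCTL, at 0.41 in siCARM1, 0.31 in siCHD4, 0.51 in siGATAD2A and 0.39 in siKDM1A on the log2 scale. Set against the mean of these 4 knockdowns, HDAC1 in siHDAC2 differed by 0.11 ± 0.03 on the log2 scale, which passed the adjusted p (edgeR, 0.00356) but not the fold minimum of 1.2. Of the other class I enzymes, HDAC8, at 13.9 and 12 CPM in siCTL and 16.9 and 17.2 CPM in siHDAC2, was higher by 0.40 ± 0.11 (edgeR adjusted p = 0.004), a call that was lost without siCTL replicate 2 (0.29). HDAC3, the deacetylase of the NCOR corepressor, differed by 0.18 and was not called.

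**Figure D1:**
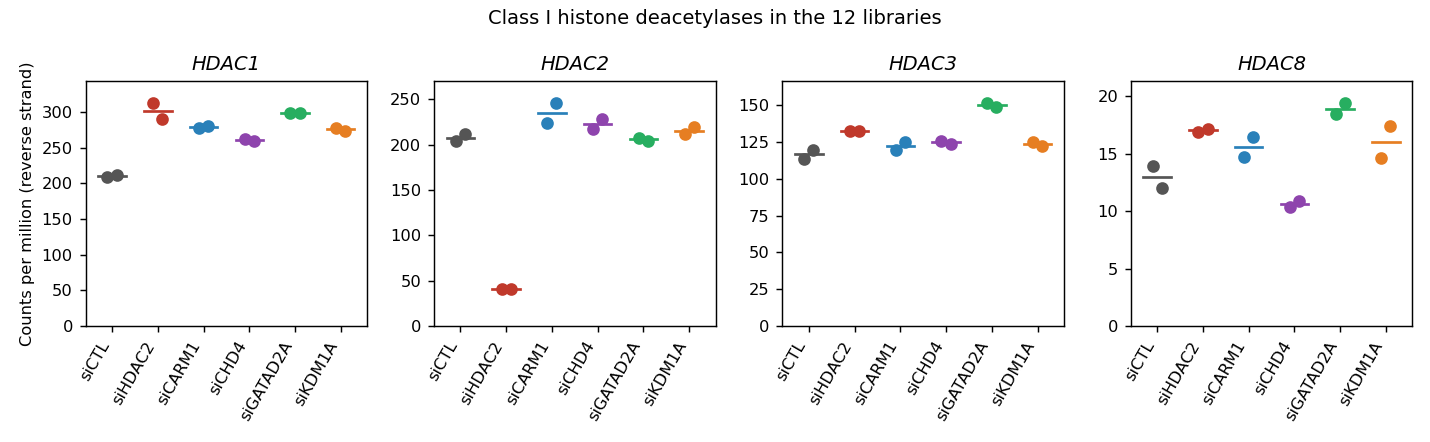
CPM (vertical axis, from 0) of HDAC1, HDAC2, HDAC3 and HDAC8 in each of the 12 libraries, by group; points are libraries and horizontal lines are the means of 2. Both siHDAC2 libraries sit at 41 CPM for HDAC2 while the other 10 sit between 204 and 246 CPM, and for HDAC1 the 10 knockdown libraries all lie above the 2 siCTL libraries.

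Of the 12853 coding genes tested, 1357 were higher in siHDAC2 than in siCTL (10.6% of the genes tested) and 1149 were lower (8.94%), where a gene is called at a fold of at least 1.2 and an adjusted p of at most 0.05 (edgeR quasi-likelihood test). These counts were the smallest of the 5 knockdowns: 1915 genes were higher and 1851 lower in siCARM1, 3081 and 3189 in siCHD4, 2014 and 2336 in siGATAD2A, and 1829 and 1470 in siKDM1A, each against the same 2 siCTL libraries. The called genes differed by a median of 1.35-fold when higher and 1.31-fold when lower, and 100 genes were more than 2-fold higher and 57 more than 2-fold lower. The biological coefficient of variation between libraries of a group was 3.47%. Across genes, the log2 fold change had a Spearman correlation of −0.14 with the GC content of the transcript and 0.20 with exonic length. With 2 libraries on each side, the smallest two-sided p of an exact permutation test is 0.333, and the p-values given here are those of the model fitted across all genes. Groups that do not overlap are therefore no evidence of a change by themselves, and how many of all genes had such groups was not counted.

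**Figure D2:**
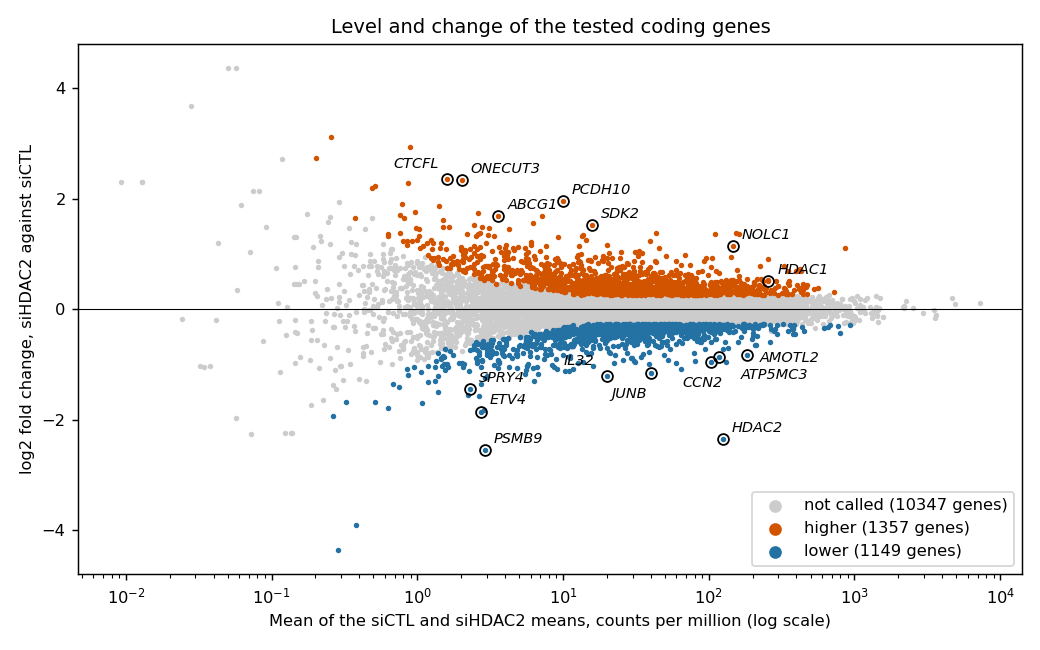
Each point is a tested coding gene, with its mean level in CPM (horizontal log axis) and its log2 fold change in siHDAC2 against siCTL (vertical axis); 1357 genes called higher are orange, 1149 called lower are blue and the rest grey. HDAC2 lies at −2.35 at a level where other called genes lie mostly within 1 log2 unit of 0.

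The feedback genes of ERK signalling were the gene group with the lowest median. ERK is the last kinase of the RAS-RAF-MEK cascade, and it induces transcription factors such as ETV4 and ETV5 as well as inhibitors that dampen the cascade, the Sprouty and SPRED proteins and the dual specificity phosphatases (DUSP). All 12 members of this list were tested: 11 were lower in siHDAC2, none was higher, and the median log2 fold change was −0.59, against −0.002 over all tested genes. Counts of called members in this and the following lists stand beside 10.6% higher and 8.94% lower over all genes tested. SPRY1, the remaining member, was at −0.26. With 1 library left out, 9 or 10 of the 12 were lower.

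ETV4 (chr17:41605212-41656988), a member of the PEA3 group of ETS factors, was at 3.99 and 4.55 CPM in siCTL and at 1.19 and 1.19 CPM in siHDAC2. Its log2 fold change was −1.85 ± 0.21 (edgeR adjusted p = 3.24e-08). In the other knockdowns ETV4 was at −0.37 in siCARM1, 2.80 in siCHD4, 2.16 in siGATAD2A and 0.30 in siKDM1A against siCTL, so that the siHDAC2 libraries were the lowest of the 12 and the siCHD4 libraries, at 29.2 and 30.7 CPM, the highest. SPRY4 (chr5:141689992-141706020), a Sprouty inhibitor of receptor tyrosine kinase signalling, had the same order, at 3.56 and 3.17 CPM in siCTL and 1.34 and 1.16 CPM in siHDAC2. SPRY4 was at a log2 fold change of −1.44 ± 0.22 in siHDAC2 (edgeR adjusted p = 5.47e-06), −0.11 in siCARM1, 3.15 in siCHD4, 2.56 in siGATAD2A and 0.66 in siKDM1A.

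ETV5 was at 4.43 and 5.24 CPM in siCTL and at 2.58 and 2.16 CPM in siHDAC2, with a log2 fold change of −1.05. DUSP4, a nuclear phosphatase of MAP kinases, was at 24.2 and 25.6 CPM against 15.5 and 15.1 CPM, a log2 fold change of −0.70. The groups of both genes were separated by more than the spread within either. The remaining called members, named after their values were seen, were DUSP6 (−1.02), DUSP5 (−0.68), PHLDA1 (−0.50), SPRED1 (−0.42), SPRED2 (−0.37), DUSP7 (−0.35) and SPRY2 (−0.28). DUSP6, the cytoplasmic ERK phosphatase, was called on 1.2 and 1.93 CPM in siCTL against 1.08 and 0.559 CPM in siHDAC2, and it was not called without siHDAC2 replicate 2 (−0.56) or without siCTL replicate 2 (−0.62). SPRED1 lost its call without siHDAC2 replicate 1 (−0.30), PHLDA1 without siCTL replicate 1 (−0.42), and SPRY2 without siHDAC2 replicate 1 (−0.18) or siCTL replicate 1 (−0.25). The list as a whole had a median of −0.09 in siCARM1, 1.13 in siCHD4, 0.96 in siGATAD2A and −0.10 in siKDM1A, with 10 members higher and 1 lower in each of siCHD4 and siGATAD2A.

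The targets of YAP and TEAD, the coactivator and DNA-binding factors at the end of the Hippo pathway, were the next group with several members apart. Of 14 genes tested, 6 were lower and 1, AMOTL1, was higher (0.39), with a median log2 fold change of −0.23. CCN2 (connective tissue growth factor, chr6:132269316-132272512) was at 131 and 143 CPM in siCTL and at 71.6 and 70.1 CPM in siHDAC2, with a log2 fold change of −0.95 ± 0.05 (edgeR adjusted p = 8.63e-16). AMOTL2, an angiomotin that binds YAP, was at 225 and 241 CPM against 131 and 132 CPM, a log2 fold change of −0.83. ANKRD1 (chr10:92671853-92680844), an ankyrin repeat protein and a standard readout of YAP activity, was at 46.4 and 43.2 CPM against 25.1 and 26.2 CPM, a log2 fold change of −0.80 ± 0.06 (edgeR adjusted p = 1.73e-11).

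The order of the knockdowns differed between these 3 genes. CCN2 was at −0.16 in siCARM1, 0.96 in siCHD4, 0.37 in siGATAD2A and 0.10 in siKDM1A, and ANKRD1 at 0.98, 2.50, 0.47 and 0.84 in the same order, both above their siHDAC2 values. AMOTL2 was also at −0.83 in siCHD4, and at −0.38 in siCARM1, −0.46 in siGATAD2A and −0.20 in siKDM1A. AJUBA (−0.44) and, named after their values were seen, CCN1 (−0.38) and NUAK2 (−0.39) were the other lower members, the last of which was not called without siHDAC2 replicate 1 or without siCTL replicate 1 (−0.35 in both). The list median was 0.17 in siCARM1, 0.63 in siCHD4, 0.32 in siGATAD2A and 0.15 in siKDM1A.

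**Figure D3:**
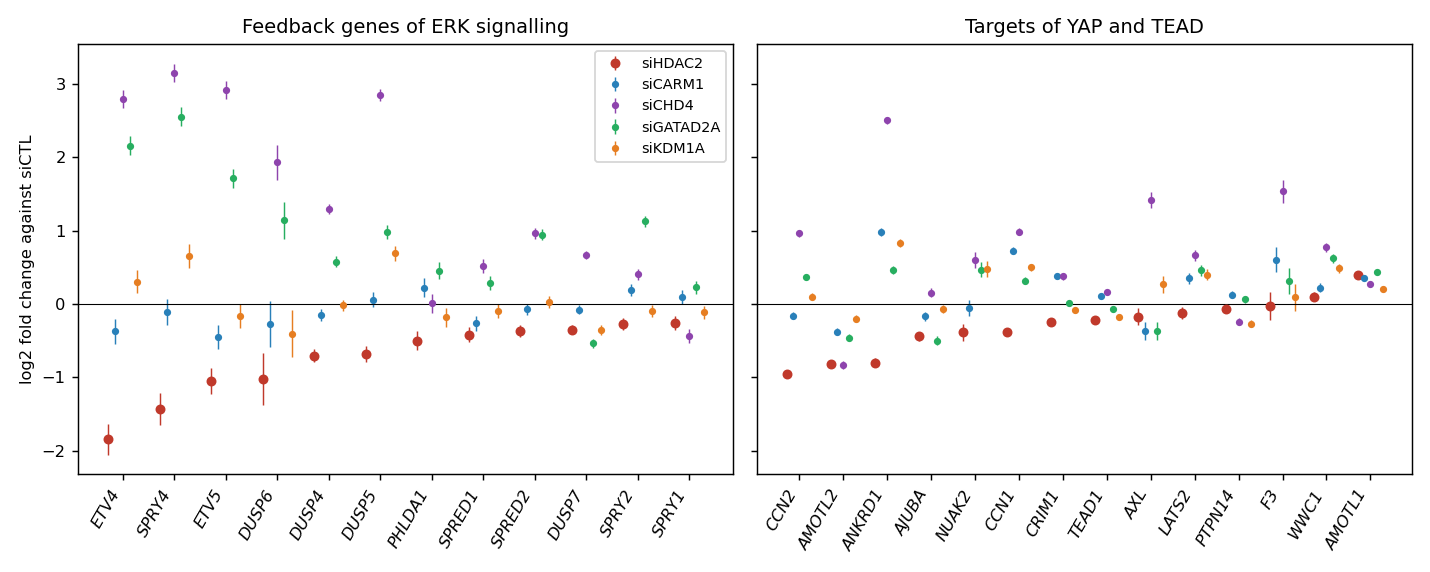
Log2 fold change against siCTL (vertical axis, with standard error) of each tested ERK feedback gene (left) and YAP and TEAD target (right) in the 5 knockdowns; the larger red points are siHDAC2. The siHDAC2 points of the 12 ERK feedback genes all lie below 0, while in siCHD4 10 of the 12 were called higher.

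To show the sequence in front of these genes, the promoters of the lower members were taken from RefSeq (GRCh38.p14), in a window of 250 bases before to 50 bases after the start. An entry was found for 7 of the 11 lower ERK feedback genes and for 5 of the 6 lower YAP and TEAD targets. The core of the TEAD motif, GGAATG on either strand, was in 3 of these 5 (CCN2, ANKRD1 and NUAK2), in 10.7% of the promoters of 10414 tested genes with an entry, in 106 of the 885 lower in siHDAC2 and in 117 of the 1083 higher. The 250 bases before the start of these 3 are given 5′ to 3′ on the strand of the gene (minus in each case) with GGAATG, or CATTCC for the other strand, in capitals, for CCN2 at chr6:131951373-131951622, ANKRD1 at chr10:90921088-90921337 and NUAK2 at chr1:205321746-205321995. CCN2 holds matches starting 169, 104 and 95 bases before the start, ANKRD1 at 220 and 128 bases, and NUAK2 at 197 and 18 bases.
CCN2: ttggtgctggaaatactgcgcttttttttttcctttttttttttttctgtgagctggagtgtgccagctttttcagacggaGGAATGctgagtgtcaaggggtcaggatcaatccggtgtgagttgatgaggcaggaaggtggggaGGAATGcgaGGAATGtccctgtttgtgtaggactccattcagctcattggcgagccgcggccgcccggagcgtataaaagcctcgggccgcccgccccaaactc
ANKRD1: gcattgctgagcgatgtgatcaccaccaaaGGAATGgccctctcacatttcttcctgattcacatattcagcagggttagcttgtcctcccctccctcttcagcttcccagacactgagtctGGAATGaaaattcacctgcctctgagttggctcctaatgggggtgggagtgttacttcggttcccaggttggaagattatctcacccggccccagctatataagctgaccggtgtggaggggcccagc
NUAK2: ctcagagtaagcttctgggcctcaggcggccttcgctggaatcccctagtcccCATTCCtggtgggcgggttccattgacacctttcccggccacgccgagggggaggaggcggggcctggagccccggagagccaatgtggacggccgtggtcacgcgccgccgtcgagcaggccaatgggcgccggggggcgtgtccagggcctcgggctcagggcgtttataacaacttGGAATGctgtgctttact

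The 7 promoters of lower ERK feedback genes held none of the motifs TGACTCA (AP-1), TGACGTCA (CRE) or CCGGAAGT (ETS), which were in 2.82%, 3.35% and 8.64% of the promoters of tested genes. The letters GGGCGG, bound by SP1-type factors, were in 6 of the 7 and in 71.6% of the promoters of tested genes. SPRY4, the ERK feedback gene with the largest change among those with an entry, is given as an example (chr5:142324248-142324497, minus strand, 250 bases before the start, GGGCGG in capitals). Of the 9 motifs searched, each on both strands, a match is a description of letters and not of binding.
SPRY4: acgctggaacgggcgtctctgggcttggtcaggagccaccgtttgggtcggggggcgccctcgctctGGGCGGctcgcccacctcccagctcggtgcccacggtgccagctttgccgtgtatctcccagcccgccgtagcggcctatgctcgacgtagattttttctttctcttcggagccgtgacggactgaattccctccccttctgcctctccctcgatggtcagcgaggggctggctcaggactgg

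Immediate early genes, which are induced within minutes of growth factor or stress signals, were mixed. Of 21 tested, 5 were lower and 2 higher, with a median of −0.10. The share higher was close to the 10.6% over all genes tested, and the share lower was above the 8.94%. FOS, a subunit of AP-1, was at 50.7 and 52.6 CPM in siCTL and at 24.2 and 27.4 CPM in siHDAC2, with a log2 fold change of −1.0. FOSB was at 39.3 and 42.5 CPM against 20.1 and 22.2 CPM (−0.95), and NR4A1, an orphan nuclear receptor, at 38 and 39.4 CPM against 20.3 and 21.9 CPM (−0.87). In each of the 3 the groups were well apart. JUNB varied more within groups, at 62.2 and 49.3 CPM in siCTL and 23.0 and 26.8 CPM in siHDAC2, with a log2 fold change of −1.15 ± 0.17 (edgeR adjusted p = 0.00118). EGR1 was lower by −0.51, and MYC (0.43) and JUN (0.39) were higher.

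The other knockdowns split these genes. FOS was at −0.62 in siCARM1, −2.17 in siCHD4, −2.28 in siGATAD2A and −1.43 in siKDM1A, and FOSB at −0.68, −2.26, −2.25 and −2.10, so that siHDAC2 lay above the mean of the 4 for both (by 0.63 and 0.88 on the log2 scale, both called). NR4A1, in contrast, was at −0.04, 2.22, 0.43 and −0.33 in the same order, and siHDAC2 lay below all of them, as did JUNB, at −0.03, 0.15, −0.49 and −0.37.

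In the TGF-beta and BMP pathway, which signals through SMAD factors to induce the ID proteins, inhibitors of basic helix-loop-helix factors, 10 of 23 genes tested were lower and 1, the receptor TGFBR1 (0.32), was higher, with a median of −0.25. Among the ligands, BMP4 was at 23.3 and 24.1 CPM in siCTL and 14.5 and 16.3 CPM in siHDAC2, with a log2 fold change of −0.61. Among the targets, ID1 was at 104 and 98.0 CPM against 54.8 and 62.0 CPM, a log2 fold change of −0.78 ± 0.06 (edgeR adjusted p = 1.75e-11), and ID2 at 51.5 and 53.2 CPM against 33.2 and 33.8 CPM (−0.64). The inhibitory SMAD6, itself induced by the pathway, was at 111 and 103 CPM against 67.7 and 73.2 CPM (−0.59).

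For each of these genes both siHDAC2 libraries lay below both siCTL libraries, which 2 against 2 libraries can show without a change. The other lower members, named after their values were seen, were SMAD7 (−0.57), ID3 (−0.53), TGFB2 (−0.53), BMP2 (−0.41), BAMBI (−0.35) and SKIL (−0.29), of which BAMBI was not called without siHDAC2 replicate 2 (−0.29) or siCTL replicate 2 (−0.26). For ID1 the other knockdowns were at −0.12 in siCARM1, 0.03 in siCHD4, −0.66 in siGATAD2A and −0.16 in siKDM1A, and ID1 was lower in siHDAC2 than their mean by −0.55 ± 0.05 on the log2 scale (edgeR adjusted p = 2.46e-10). Against siGATAD2A alone ID1 did not pass the fold minimum (−0.12), and BMP2 and TGFB2 were the 2 members of the list called lower in siHDAC2 against each of the 5 other groups. The list as a whole was similar in siGATAD2A, with 9 members lower, 4 higher and a median of −0.23. Its median was 0.05 in siCARM1, 0.03 in siCHD4 and −0.04 in siKDM1A.

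Genes of antigen presentation and genes induced by interferon were called in 1 direction. Of 14 antigen presentation genes tested 7 were lower and none higher (median −0.27), and of 24 interferon-induced genes 9 were lower and none higher (median −0.21). PSMB9, a catalytic subunit of the immunoproteasome, was at 5.96 and 4.05 CPM in siCTL and 0.722 and 0.932 CPM in siHDAC2, with a log2 fold change of −2.55 ± 0.27 (edgeR adjusted p = 6.93e-09), the largest decrease among the genes named by size of change. TAP1, TAP2 and TAPBP, which load peptides on MHC class I, were lower by log2 fold changes of −0.44, −0.47 and −0.36. Part of the exons of PSMB9 (5.21%) and TAP2 (19.5%) is shared with other genes on the same strand.

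PSMB9 was also lower in the other knockdowns, at −0.99 in siCARM1, −1.34 in siCHD4, −2.86 in siGATAD2A and −1.94 in siKDM1A, whereas TAPBP was at −0.18, −0.06, −0.07 and 0.14. Of the interferon-induced genes, IFITM2 (−1.02), ISG15 (−0.82), IFITM3 (−0.58) and IFIT3 (−0.57) were lower. IFITM2 and IFITM3 are close paralogues whose reads may be exchanged, and IFIT3 was not called under DESeq2 or without siHDAC2 replicate 2 (−0.57 in both) or siCTL replicate 2 (−0.48). The list of interferon-induced genes had medians of −0.27, −0.37, −0.47 and −0.25 in siCARM1, siCHD4, siGATAD2A and siKDM1A.

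Chaperones of the endoplasmic reticulum were the gene group with the largest share of higher members. Of 14 genes of the unfolded protein response tested, 8 were higher and 2 lower (median 0.29). HSP90B1 was at 399 and 364 CPM in siCTL and 508 and 487 CPM in siHDAC2, with a log2 fold change of 0.38, and HSPA5 (BiP) at 298 and 287 CPM against 386 and 371 CPM (0.37). EDEM1, which sends misfolded glycoproteins to degradation, went the other way, at 115 and 120 CPM against 73.2 and 70.6 CPM (−0.71). DNAJB9 was also lower (−0.42), a call lost without siHDAC2 replicate 2 (−0.41) or siCTL replicate 1 (−0.39). HSPA5 was at 0.45 in siCARM1, 0.76 in siCHD4, 0.37 in siGATAD2A and 0.48 in siKDM1A, so no increase particular to siHDAC2 was seen for it. Nor was the direction of the list particular to siHDAC2, as 4 members were higher in siCARM1, 10 in siCHD4, 6 in siGATAD2A and 6 in siKDM1A. Against the mean of these 4 knockdowns, 0 members were higher in siHDAC2 and 3 lower.

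In fatty acid synthesis 5 of 11 genes were higher and none lower (median 0.16). Malic enzyme ME1 was at 34.4 and 36.7 CPM in siCTL and 56.4 and 57.0 CPM in siHDAC2 (0.67), the lipogenic factor SREBF1 at 56.5 and 61.7 CPM against 78.8 and 90.7 CPM (0.52), and the desaturase SCD at 485 and 486 CPM against 636 and 631 CPM (0.38). SCD was at −0.23 in siCARM1, −0.46 in siCHD4, 0.46 in siGATAD2A and 0.11 in siKDM1A, and ACACA, the acetyl-CoA carboxylase, at 0.38 in siHDAC2 with 0.40, 0.06, 0.26 and 0.36 in the others. Among Notch genes, which include the ligands DLL1 (0.71) and DLL4 (−0.83) called in opposite directions, 7 of 18 were lower and 1 higher (median −0.18). With 1 library left out, 4 or 5 of the Notch genes were lower, the losses being among DLL3 and, named after their values were seen, HES1, HES6 and MFNG.

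Of the cell cycle genes, the G2/M and S phase lists had smaller shares called than the 10.6% higher and 8.94% lower over all genes tested. The list of G1 cyclins and RB had larger ones. Of 53 G2/M genes tested 1 was lower (CDK1, −0.32) and none higher, with a median of −0.05, and of 43 S phase genes 3 were higher (NASP, 0.41, CDC45, 0.32, and POLA1, 0.27) and none lower, with a median of 0.06. POLA1 lay at the fold minimum and was not called without siHDAC2 replicate 1 (0.25) or siCTL replicate 1 (0.26). With no fold minimum, 14 G2/M genes were lower and 5 higher, and 9 S phase genes were higher and 3 lower. Over all 12853 genes tested, 2289 were then higher and 2247 lower. Of 18 cell cycle genes picked for RT-qPCR in these knockdowns, and so no independent evidence of a direction, 1 was higher (NEDD1, 0.29) and 1 lower (E2F2, −0.35). Among them, CDC20, CENPA, CDC25C and AURKA are also in the G2/M list and E2F8 in the S phase list. NEDD1 was not called without siHDAC2 replicate 1 (0.19) or siCTL replicate 2 (0.26). Of 11 genes tested in the list of G1 cyclins and RB, 3 were higher and 2 lower, with a median of 0.02. Among them, CCND1, a G1 cyclin, was lower (−0.35), and CCND2, of whose exons 12.5% are shared with another gene, was higher (0.46). Of 34 p53 targets tested 4 were higher and 3 lower against siCTL (median −0.001), shares close to those over all genes. Against the mean of the 4 other knockdowns, 12 were higher and 3 lower, beside 10.6% and 8.75% of all genes tested. Against siCTL, siCHD4 had 6 higher and 17 lower, siGATAD2A 3 and 14, siCARM1 6 and 9, and siKDM1A 6 and 6.

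Of the 16 NuRD subunits, all of which were tested, 3 were higher in siHDAC2 (HDAC1, MTA1, 0.41, and CHD3, 0.41) and 2 lower (HDAC2 and MBD3, −0.28), with a median of −0.05. MTA1, which with MTA2 and MTA3 binds the deacetylases, was at 133 and 142 CPM in siCTL and 176 and 188 CPM in siHDAC2. MTA2 was at 485 and 464 CPM against 380 and 414 CPM, a log2 fold change of −0.26 that stayed under the fold minimum. MBD3, which shares 9.70% of its exons with another gene, was not called without siHDAC2 replicate 1 or siCTL replicate 2 (−0.23 in both). MTA1 was at 0.30, 0.14, 0.37 and 0.39 and CHD3 at 0.40, 0.58, 0.14 and 0.17 in siCARM1, siCHD4, siGATAD2A and siKDM1A. In the SIN3 complex SUDS3 was higher (0.34) and SAP30L (−0.41) and BRMS1L (−0.30) lower of 16 tested, the last lost under DESeq2 (−0.30, adjusted p = 0.051) and without any of 3 of the 4 libraries (−0.31 to −0.23). In the CoREST and MiDAC complexes ZMYM3 was higher (0.37) and MIDEAS lower (−0.28) of 13, and in the NCOR complex TBL1X was higher (0.43) of 6. Beside the 10.6% higher and 8.94% lower over all genes tested, counts of 1 or 2 members are no result about these complexes.

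**Figure D4:**
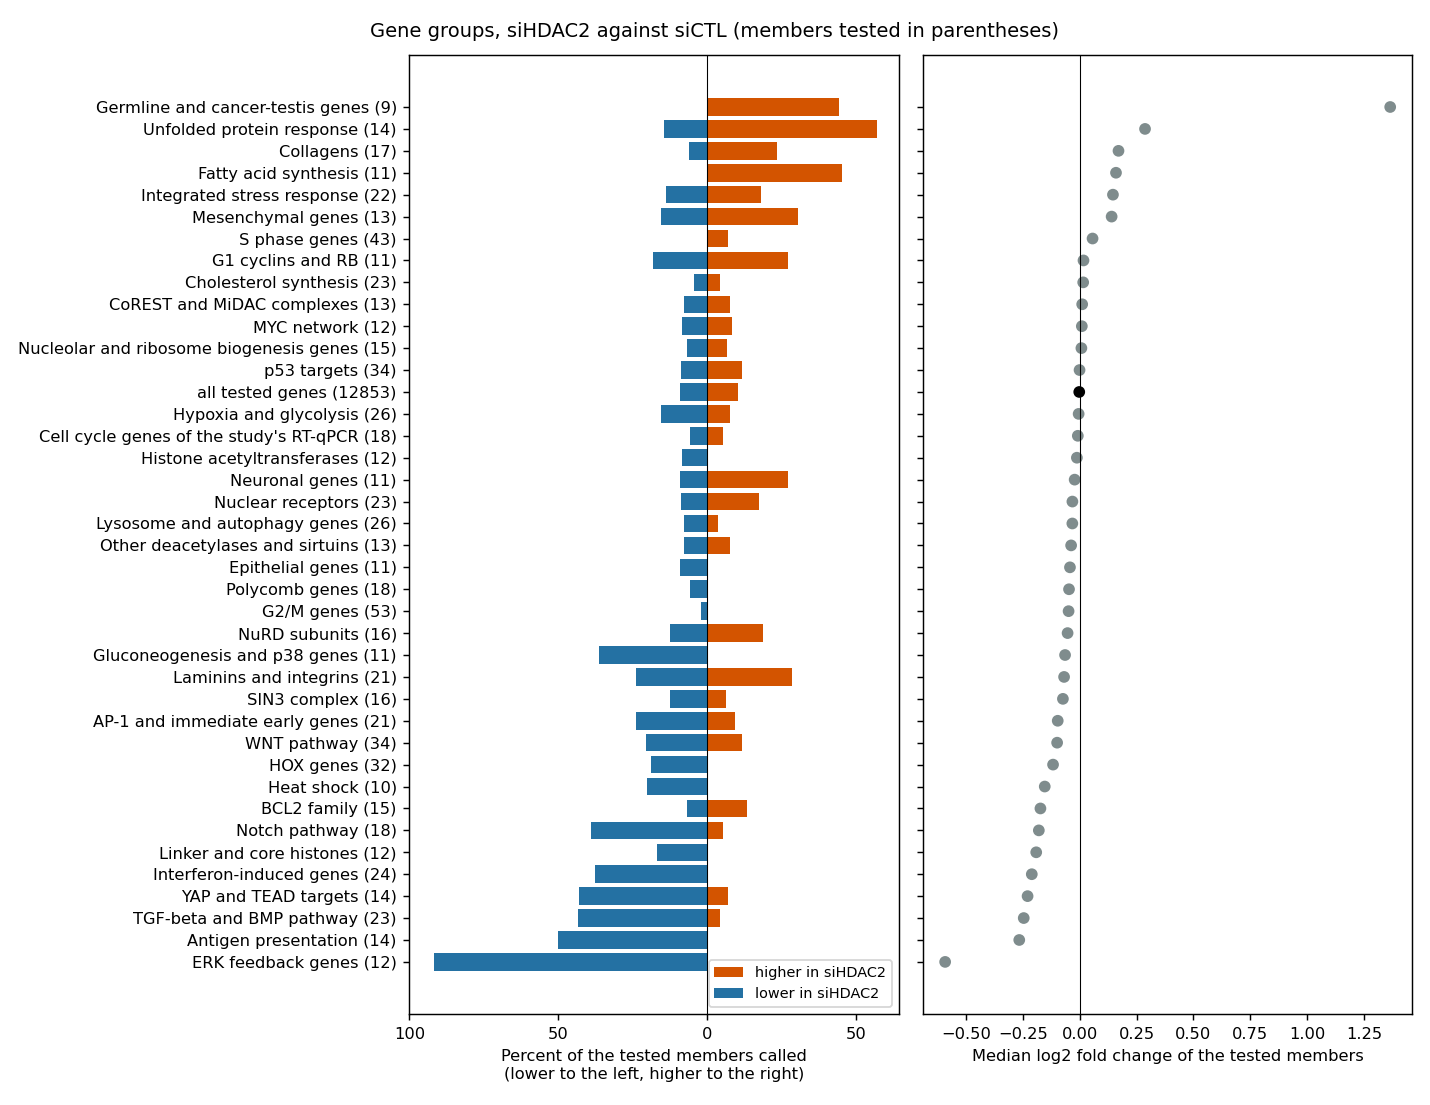
Left, percent of the tested members of each gene group called higher (orange, to the right) or lower (blue, to the left) in siHDAC2 against siCTL; right, the median log2 fold change of the tested members, with all tested genes in black. Groups with at least 9 tested members are shown, ordered by median, from the ERK feedback genes (−0.59) to the germline genes, of which 9 of 24 passed the filter on low values. That filter admits a gene through any group, so the place of the germline genes in this order may depend on it. Of these 9 genes, 8 were higher in siCHD4 (median 5.93) and 4 in siHDAC2 (median 1.37).

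Among genes with a mean of at least 50 counts in the higher group and no overlap between groups, those with the largest increases against siCTL were expressed at low levels. CTCFL (BORIS), a testis paralogue of CTCF, was at 0.438 and 0.552 CPM in siCTL (8 and 12 counts) and 3.76 and 1.68 CPM in siHDAC2, with a log2 fold change of 2.36 ± 0.38 (edgeR adjusted p = 1.10e-05). ONECUT3, a homeodomain factor, was at 0.547 and 0.782 CPM against 2.73 and 4.02 CPM (2.35), and PCDH10, a protocadherin, at 4.27 and 3.91 CPM against 15.5 and 16.2 CPM (1.96). These genes were higher in the other knockdowns too. The filter at 0.5 FPKM admits a gene through any group, however. CTCFL, ONECUT3 and THBS4 were low in siHDAC2 and higher in at least 1 other knockdown, which may be what admitted them. For these genes an increase in another knockdown is therefore no independent result. PCDH10, EBF2, GREM1, WNT7B, PRTFDC1, PCDH1, CDH4, ANKRD7, CLEC4F, ABCG1 and ADGRL3 were low in siCTL for their exonic length. They may have been admitted only through knockdowns in which they were higher. For all of these genes, a level above siCTL, in siHDAC2 or shared by knockdowns, may thus be set in part by the filter. CTCFL was at 1.34, 5.89, 3.59 and 2.03, ONECUT3 at 1.43, 2.20, 3.96 and 2.94, and PCDH10 at 1.96, 1.77, 2.15 and 2.42 in siCARM1, siCHD4, siGATAD2A and siKDM1A, and THBS4, EBF2, GREM1, SDK2, WNT7B, PRTFDC1, PCDH1 and CDH4 were called higher in all 5 knockdowns. ANKRD7 was called higher in siHDAC2 (1.48), siCARM1 (1.4) and siGATAD2A (0.91), and was not called in siCHD4 (0.53) or siKDM1A (0.85). Among the more abundant genes, NOLC1, a nucleolar chaperone, had the same pattern, at 93.8 and 87.7 CPM in siCTL and 205 and 197 CPM in siHDAC2 (1.15 ± 0.05, edgeR adjusted p = 5.50e-19), with 1.29, 1.37, 1.21 and 1.26 in the others.

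ABCG1 and ADGRL3 departed from this. ABCG1, a cholesterol exporter, was at 1.86 and 1.56 CPM in siCTL and 5.46 and 5.55 CPM in siHDAC2 (1.69 ± 0.21), and was at −0.93 in siCARM1, −1.16 in siCHD4, 1.88 in siGATAD2A and 0.72 in siKDM1A. ADGRL3, an adhesion receptor of neurons, was at 3.23 and 3.45 CPM against 12.1 and 9.76 CPM (1.69), with −0.32 in siCHD4 and 1.42 to 1.58 in the remaining knockdowns. Both differed from the mean of the 4 other knockdowns, by 1.57 and 0.63 on the log2 scale.

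By the same rule, the genes with the largest decreases, besides HDAC2, PSMB9 and the genes described above, were ANXA8 (−1.82), CEND1 (−1.57), SHFL (−1.55), SP5 (−1.34), ECM1 (−1.29), FBXL16 (−1.23), RHEBL1 (−1.21), IL32 (−1.20), SUSD2 (−1.17) and SSC4D (−1.16). ANXA8 shares 44.5% of its exons with another gene and has a near-identical copy, so its counts are uncertain. SHFL, an interferon-induced inhibitor of viral frameshifting, was at 3.23 and 3.5 CPM in siCTL and 1.03 and 1.23 CPM in siHDAC2, and its call was lost when counts were taken without regard to strand (−0.82). SHFL was at −1.61, −1.52, −1.12 and −1.54 in siCARM1, siCHD4, siGATAD2A and siKDM1A, and SSC4D at −1.54, −1.44, −1.66 and −0.95. FBXL16, in contrast, was at 0.07, 0.77, −0.36 and −1.27, and CEND1 at −2.43, −1.59, −1.41 and 0.56.

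Compared with the mean of the 4 other knockdowns, 1367 genes were higher in siHDAC2 (10.6% of the genes tested) and 1125 were lower (8.75%). A stricter set was formed by the genes apart in siHDAC2, called in the same direction against siCTL and against each of the 4 other knockdowns. Of these 98 genes, 33 were higher (0.257%) and 65 lower (0.506%). With 1 library left out, 87 to 117 genes were apart, and 42 genes were apart in each of those fits.

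After HDAC2, the genes apart and lower by the largest margin with at least 50 counts were ETV4, SPRY4, SYDE1, ANKRD1, ATP5MC3, CCN2, KRT80, IL32 and ZFP36. ATP5MC3 (chr2:176040986-176046438), one of the 3 genes for subunit c of the mitochondrial ATP synthase, was at 151 and 154 CPM in siCTL and 84.5 and 82.7 CPM in siHDAC2, with a log2 fold change of −0.87 ± 0.05 (edgeR adjusted p = 2.10e-15). The 8 libraries of the other knockdowns lay between 141 and 149 CPM, or −0.06 to −0.07 against siCTL, so the change was measured in siHDAC2 alone of the 6 groups. SYDE1, a GTPase activating protein, was at 86.9 and 89.9 CPM in siCTL and 36.1 and 46.5 CPM in siHDAC2 (−1.08 ± 0.08, edgeR adjusted p = 6.49e-11), with 0.04, 0.62, −0.15 and 0.08 in siCARM1, siCHD4, siGATAD2A and siKDM1A.

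IL32, a cytokine, was at 26.3 and 29.6 CPM in siCTL and 11.8 and 12.6 CPM in siHDAC2 (−1.20 ± 0.10), with −0.45, −0.20, −0.45 and 0.66 in the others. KRT80, an epithelial keratin, was at 7.55 and 7.59 CPM against 3.25 and 4.10 CPM (−1.02), with −0.25, 0.01, −0.16 and 0.14. ZFP36, which destabilizes mRNAs with AU-rich elements, was at 3.83 and 2.76 CPM against 1.91 and 1.68 CPM (−0.87), a call that was lost without siHDAC2 replicate 2 (−0.77) or siCTL replicate 1 (−0.64). ZFP36 did not stay apart whichever library was left out, whereas HDAC2 and the other 8 genes did.

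The other lower genes of this set, named after their values were seen, included SRF (−0.35), the serum response factor that drives immediate early and cytoskeletal genes, THBS1 (−0.88), TAGLN (−0.72, 38.1% of its exons shared) and TNFRSF12A (−0.68). Also among them were NFKBIA (−0.33), the inhibitor that holds NF-kappaB in the cytoplasm, BCL3 (−0.55), the adhesion molecule ICAM1 (−0.53) and SOCS3 (−0.46), an inhibitor of cytokine signalling. Of these 8 genes, TAGLN, BCL3 and ICAM1 did not stay apart whichever library was left out. SRF was at 85.9 and 84.5 CPM in siCTL and 65.0 and 68.4 CPM in siHDAC2, and in the 8 libraries of the other knockdowns between 90.5 and 114 CPM. Of the 47 genes apart and lower with a RefSeq promoter, 12 held GGAATG (25.5%, against 10.7% of the tested genes): ANKRD1, CCN2, IL32, NATD1, NUAK2, P3H2, SOCS3, SPRY4, SYDE1, TGFB2, THBS1 and ZFP36. The TATA motif TATAAA was in 17.0% of these 47 and in 5.54% of the tested genes. Of other motifs, GGGCGG (63.8% against 71.6%) and CCGGAAGT (4.26% against 8.64%) had smaller shares in these 47, and TGACGTCA (6.38% against 3.35%) a larger one. Among the 26 genes apart and higher with a promoter, GGAATG was in 15.4% and TATAAA in 7.69%. These shares are descriptions of sets chosen by their change and were given no test.

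The genes apart and higher by the largest margin were ENPP2, CLEC4F, LPAR3, CYRIA, TXNIP, INPP5D, ZNF730, SCN9A, ZNF836 and ZNF528, of which CLEC4F, CYRIA, ENPP2 and ZNF836 did not stay apart whichever library was left out. TXNIP, the thioredoxin-binding arrestin that limits glucose uptake, was at 25.8 and 26.0 CPM in siCTL and 42.9 and 40.7 CPM in siHDAC2, with a log2 fold change of 0.69 ± 0.08 (edgeR adjusted p = 1.80e-08). TXNIP was at 0.16, −0.01, −0.93 and −0.04 in siCARM1, siCHD4, siGATAD2A and siKDM1A. Named after its values were seen, DDIT4, an inhibitor of mTORC1, was also in the set, at 103 and 110 CPM in siCTL and 142 and 158 CPM in siHDAC2 (0.49), with 0.12, −0.85, −0.83 and −0.06 in the others.

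ENPP2 (autotaxin), which makes lysophosphatidic acid, was at 3.67 and 5.11 CPM in siCTL and 10.0 and 7.04 CPM in siHDAC2 (0.92 ± 0.20, edgeR adjusted p = 0.0006), with 0.19, −0.28, −0.67 and −0.80 in siCARM1, siCHD4, siGATAD2A and siKDM1A. LPAR3, a receptor for that lipid, was at 4.10 and 3.17 CPM against 6.80 and 6.52 CPM (0.88 ± 0.18, edgeR adjusted p = 0.0003), with 0.04, 0.33, 0.13 and 0.04. Both rest on low counts, and the spread between the 2 siHDAC2 libraries was larger for ENPP2. SCN9A, a voltage-gated sodium channel, was at 11.5 and 11.3 CPM against 21.2 and 22.5 CPM (0.95), and was at −2.51 in siCHD4 and 0.17 to 0.49 in the remaining knockdowns. The zinc finger genes ZNF730 (0.93), ZNF528 (0.65) and ZNF836 (0.56) were also in the set, with CYRIA (1.12), INPP5D (0.78) and CLEC4F (1.61), and of these ZNF730 and ZNF836 share 5.49% and 11.7% of their exons with other genes.

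**Figure D5:**
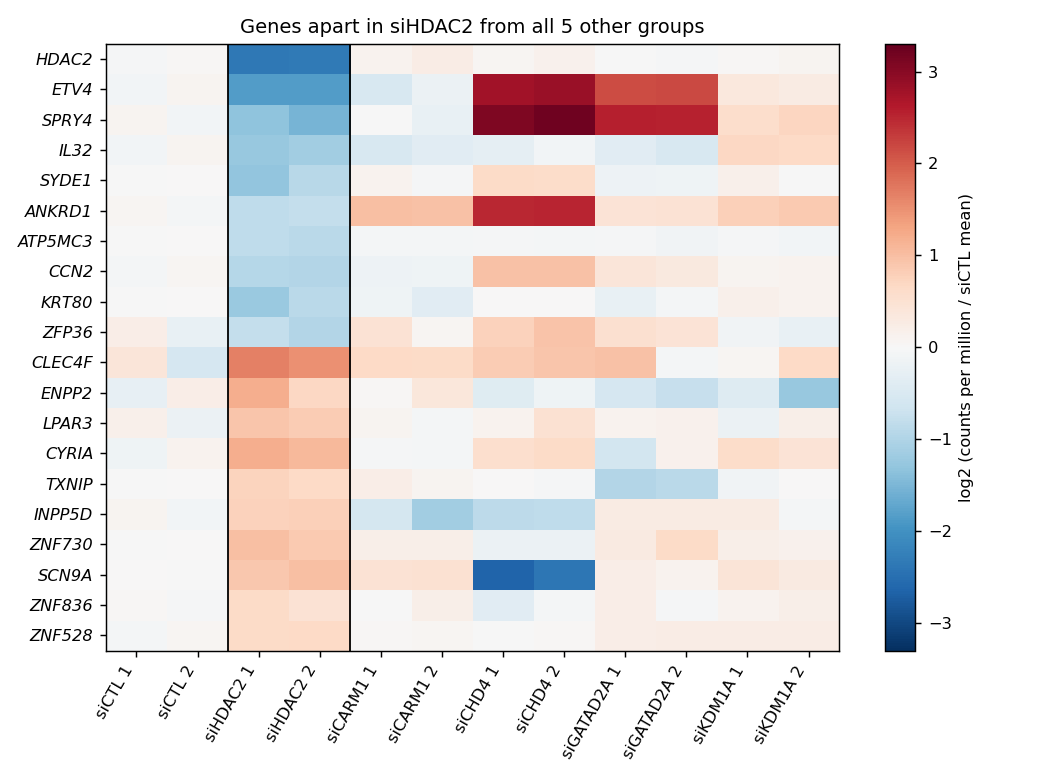
Level of the 10 lower and 10 higher genes apart in siHDAC2, in each of the 12 libraries, as log2 of CPM over the siCTL mean (colour, blue lower and red higher); the siHDAC2 libraries stand between the 2 vertical lines. ATP5MC3 and HDAC2 are near 0 in all other knockdowns, while ETV4 and SPRY4 are low in siHDAC2 and high in siCHD4 and siGATAD2A.

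Among non-coding genes, tested with all biotypes in 1 fit, 442 of 5661 were higher in siHDAC2 (7.81%) and 126 were lower (2.23%), CPM here being relative to that fit. Of 3774 lncRNAs 315 were higher and 89 lower. The siHDAC2 libraries also had the larger share of fragments on no annotated gene (21.2% and 20.9% against 17.2% and 18.0% in siCTL), whose part in this direction was not tested. DESeq2 called 276 non-coding genes and fits without 1 library 338 to 366, against 568 here.

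NEAT1, the lncRNA that builds paraspeckles, was the most abundant of 10 non-coding genes apart in siHDAC2, which were listed after their values were seen. It was at 7285 and 7433 CPM in siCTL and 9452 and 9265 CPM in siHDAC2, with a log2 fold change of 0.35 ± 0.03 (edgeR adjusted p = 1.33e-11), with −0.35, −0.79, −0.79 and −0.02 in siCARM1, siCHD4, siGATAD2A and siKDM1A. The siHDAC2 libraries were the highest of the 12. The largest increases among non-coding genes with at least 50 counts were TEX41 (1.57), SLIT2-IT1 (1.36), ZNF876P (1.34, 86.1% of its exons shared) and MIR2052HG (1.27). The 4 largest decreases were in H19 (−1.07), ENSG00000287064 (−1.02), ENSG00000280211 (−1.01) and ID2-AS1 (−1.01). H19, an imprinted lncRNA, was at 4.46 and 5.05 CPM in siCTL and 2.36 and 2.20 CPM in siHDAC2, and ID2-AS1, the antisense neighbour of ID2, at 4.25 and 4.87 CPM against 2.22 and 2.31 CPM. H19 was at −1.20, −0.09, −1.97 and −1.26 and ID2-AS1 at −1.32, −1.34, −0.96 and −0.55 in the other knockdowns.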

How the data were processed

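RNA from 12 libraries of HEK293T cells was sequenced in pairs after a directional library preparation (NEBNext Ultra Directional kit). For every library the authors deposited a table of raw counts by Ensembl gene, with an unstranded column and 1 column for each strand, as STAR writes them. The submitters' processing notes name CASAVA 1.4, STAR 2.7.10 and hg19, and the annotation behind the counts is not given in the sources used here. The study's methods describe TopHat, HOMER and DESeq2 for its own figures. Reads with several locations and ambiguous reads are not in these counts.

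The reverse-strand column was taken, the forward column holding 7.93% to 8.40% as many counts. Of 60660 identifiers 58662 matched GENCODE release 44 lifted to GRCh37, from which symbols, lengths and coordinates were taken, 44 were copies on the Y chromosome of pseudoautosomal genes and 1954 did not match and were left out. Coding genes with more than 0.5 FPKM in at least 1 group mean were tested in R 4.3.3 with edgeR 4.0.16 (TMM factors 0.968 to 1.01, glmQLFit and glmQLFTest, Benjamini-Hochberg adjustment over all 12853 genes), in 1 fit of all 12 libraries. A gene was called at an adjusted p of at most 0.05 and a fold of at least 1.2. CPM is per 1000000 counts on the genes tested, scaled by TMM. Non-coding genes were tested in a second fit over all 20156 genes of any biotype that passed filterByExpr. Groups were taken from the labels' treatment field. The comparisons were siHDAC2 against siCTL, against the mean of the 4 other knockdowns, and against each of the 5 other groups. The scripts were tested on simulated counts.

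Named are HDAC2 and HDAC1, the 15 largest called changes in each direction with libraries that did not overlap, the 10 in each direction apart by the largest margin, up to 4 called members of each gene list, and 5 non-coding genes in each direction, with a mean of at least 50 counts in the higher group, and any member of the NuRD, class I deacetylase and corepressor lists. Genes named outside this rule are marked in the text. The gene lists and the comparisons were chosen with earlier results of these data known. Alternatives were DESeq2 1.42.0, RLE size factors, a replicate block, only the 4 libraries, unstranded counts, other filters and fold minimums, and each library left out; corrections for GC content and exonic length (loess, span 0.3) were added after the data were seen.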

Additional observations from a re-analysis of the deposited data

How the results depend on the processing

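Against siCTL, 2506 genes were called. With no fold minimum this became 4536, and with a fold minimum of 1.5 it became 639. The genes apart from all 5 other groups went from 98 to 274 and 24, and those called against the mean of the 4 other knockdowns from 2492 to 5780 and 607, under the same pair of settings. For non-coding genes, 568 were called, and 276 with DESeq2. With 1 library left out, the counts lay between 2203 and 2447 against siCTL, 87 and 117 for the genes apart, 2266 and 2494 against the mean of the 4 knockdowns, and 338 and 366 for non-coding genes. Leaving out 1 library leaves its group with 1, which is then assumed to vary like the others.

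The replicate numbers are shared between groups, but nothing in the labels ties them to a batch. Deviations of same-numbered siHDAC2 and siCTL libraries correlated at 0.01 (range over pairs of groups −0.18 to 0.17). With a replicate block, 2511 genes were called against siCTL, 100 were apart and 2497 were called against the mean of the 4 knockdowns, with 568 non-coding genes, and none of the 332 genes examined changed its call. No gene among these 332 that was called in the main fit reversed under the alternatives that tested it, some having been removed by the filter at 1 FPKM. A change of sign in a gene not called in the main fit was not counted as a reversal.

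Other settings changed the counts by less than 1.5 times. The corrections for GC content and exonic length, added after the data were seen, called 2583 and 2478 genes against siCTL, and the correction for length turned the split from 1357 higher and 1149 lower to 1202 and 1276. The 2 libraries per group limit the precision.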
